A study of Mus musculus with 6 samples.

Results

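GABAergic amacrine nuclei were picked out of single-nucleus data from mouse retina by the transcripts they held, chosen by UMIs of Gad1, Gad2 and other marker genes, and 117 of 27225 kept nuclei met the rule. The libraries were from C57BL/6J mice: retina at 2 weeks after delivery of a WIF1 vector (22 members of 9905 kept nuclei), retina at 4 weeks (14 of 9637) and a naïve wild-type control (81 of 7683). Each group had 1 library, for which retinas of 2 eyes were harvested, and no label says whether the eyes were pooled. WIF1 was carried by AAV2/2, an adeno-associated virus, under the CMV promoter, which is not restricted to a cell type; HA-tagged vectors with and without GFP are described, and which was used here is not stated. The control was naïve, so vector delivery and WIF1 itself cannot be told apart. The times carry the abbreviation AVI in the labels. No age is given.

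A kept nucleus had at least 500 unique molecular identifiers (UMIs, counted RNA molecules) and at most 10% mitochondrial UMIs. A member had at least 2 UMIs of Gad1 and Gad2 together, which encode the enzymes that make GABA, and more of them than of Slc6a9, the glycine transporter GlyT1. It also had at least 1 UMI among Tfap2a, Tfap2b, Tfap2c and Pax6, transcription factors of amacrine cells, and Slc32a1, the transporter that loads GABA and glycine into vesicles. At most 2 UMIs of the bipolar genes Grm6 and Trpm1, and at most 3 of Onecut1, Onecut2 and Lhx1, genes of horizontal cells, were allowed. A mirror rule, with at least 2 UMIs of Slc6a9 and more of it than of Gad1 and Gad2, gave 165, 95 and 251 glycinergic nuclei in the libraries at 2 weeks, at 4 weeks and in the control.

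Amacrine cells are the inhibitory interneurons of the inner retina. They shape the signal that bipolar cells pass to retinal ganglion cells, and most use either GABA or glycine. GABAergic amacrine cells tend to have wide arbors and are split into many types, marked by neuropeptides, calcium-binding proteins and transcription factors, among them the starburst cells, which also release acetylcholine. WIF1 (Wnt inhibitory factor 1) is secreted and keeps Wnt ligands from their receptors; the series title places it in a model of normal-tension glaucoma.

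The promoters of 2 genes are shown because the results below turn on them: Gad2 belongs to the rule and had chromatin counts in members, and Cartpt, a neuropeptide gene, was found mainly in member nuclei without RNA of the transcription factor Maf. Both are RefSeq sequences on build GRCm38.p6, 300 bases running from upstream of the annotated start into the transcript. Gad2 lies at chr2:22622077-22622376 on the plus strand and Cartpt at chr13:99900634-99900933 on the minus strand. Capitals mark matches, on either strand, to the AP-2 motif GCCNNNGGC and to the Maf half-site TGCTGA.
Gad2: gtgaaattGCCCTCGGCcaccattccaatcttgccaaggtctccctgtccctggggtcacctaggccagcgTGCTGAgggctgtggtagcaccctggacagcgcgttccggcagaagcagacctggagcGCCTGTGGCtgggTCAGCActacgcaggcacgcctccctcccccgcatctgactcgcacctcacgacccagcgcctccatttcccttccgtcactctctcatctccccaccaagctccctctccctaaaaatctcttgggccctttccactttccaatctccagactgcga
Cartpt: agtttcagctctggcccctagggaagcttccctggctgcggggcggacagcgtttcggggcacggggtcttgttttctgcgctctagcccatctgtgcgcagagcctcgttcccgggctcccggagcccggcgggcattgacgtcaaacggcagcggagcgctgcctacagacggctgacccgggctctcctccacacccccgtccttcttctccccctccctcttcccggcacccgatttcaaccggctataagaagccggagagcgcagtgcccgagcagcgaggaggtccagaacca
The Gad2 promoter held 2 AP-2 matches and 2 Maf half-sites, and these letters were not found in the Cartpt window. Among all 32851 mouse promoters of this length, 16.6% held the AP-2 motif and 19.5% the half-site.

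The libraries had 14568384 UMIs at 2 weeks, 19997276 at 4 weeks and 21805441 in the control, over 13528, 10334 and 8556 barcodes. The median kept nucleus had 838 UMIs at 2 weeks, 1256 at 4 weeks and 1779 in the control. Members were deeper than the typical nucleus, with a median of 3798.5 UMIs at 2 weeks (1450 to 7116), 4878.5 at 4 weeks (3620 to 8034) and 5531 in the control (2593 to 15167). Rod RNA, measured with a list of rod genes, made up 0.364%, 1.10% and 0.921% of the members' summed UMIs in the same order. Libraries shared 142 to 207 cell barcodes pair by pair, and none of these was a member. A doublet caller marked 3, 0 and 2 members; they were kept here.

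With 1 library per group there was no test between groups. All intervals are exact 95% intervals that cover counting error only, and no spread between animals can be given.

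The label was compared with a gene outside the rule, since the rule's own markers were fixed by the choice of members. The homeobox gene Meis2 had a UMI in 17 of 22 members at 2 weeks, 14 of 14 at 4 weeks and 59 of 81 in the control. Summed over nuclei and scaled to counts per 1e+06 UMIs (CPM), it stood at 1275, 1991 and 1191 in members, against 28.0, 77.1 and 43.7 in glycinergic nuclei. Meis2 was thus found in most members of every library, though members and glycinergic nuclei were separated by other genes of the same nuclei. It was 1 of 10 GABAergic amacrine markers outside the rule, and the list as a whole differed far less. The 10 summed to 7320, 6738 and 6077 CPM in members, against 3685, 3117 and 3311 CPM in glycinergic nuclei. Lhx9, also on that list, was seen in few members, as given below.

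The genes that chose the members are given as a description. Gad1 stood at 797 CPM at 2 weeks, 541 at 4 weeks and 700 in the control. Gad2 stood at 466, 303 and 265 CPM, and Slc32a1 at 454, 264 and 312 CPM. Pax6, a homeobox factor kept by mature amacrine cells, stood at 1030, 870 and 534 CPM. Tfap2b was the exception among these genes: 307 CPM at 2 weeks, 0 UMIs in 14 nuclei at 4 weeks and 663 CPM in the control. At the edge of the rule, nuclei with exactly 2 Gad UMIs numbered 6, 1 and 16. Those left out only for having 1 Gad UMI numbered 14, 4 and 19, and their median depth was lower, at 2469, 3405 and 4513 UMIs against 3551, 4501 and 5060 just inside.

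Most markers of other retinal cells were low in members, and the ganglion cell marker Thy1 was not. A list of glycinergic genes summed to 257, 39.6 and 335 CPM in members at 2 weeks, at 4 weeks and in the control, against 6911, 5722 and 5470 CPM in glycinergic nuclei. Bipolar markers summed to 368, 158 and 591 CPM in members, against 5805, 4990 and 5662 CPM in the other kept nuclei. Of the 10 ganglion cell markers, 2, 1 and 4 had a UMI in members, summing to 392, 316 and 191 CPM, against 184, 111 and 107 CPM in glycinergic nuclei and 31.8, 23.2 and 116 CPM in the other kept nuclei. Thy1, a surface glycoprotein gene on that list, gave 30 of the 32 UMIs at 2 weeks and all 24 at 4 weeks. In the control it had 52 UMIs in members with Maf and 36 in those without, of 93 in the list. The other ganglion cell markers were thus low in members. The starburst gene Chat, which encodes the enzyme that makes acetylcholine, had 0, 0 and 3 UMIs, all 3 in 1 control nucleus. At the floor of 3 nuclei used for a count of 0, the share with a UMI would be 13.6% at 2 weeks and 21.4% at 4 weeks. These are not exact limits, and a count of 0 does not limit how many nuclei express the gene.

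GABAergic amacrine nuclei were a smaller share of the kept nuclei in both WIF1 libraries. They made up 0.222% at 2 weeks (0.139 to 0.336), 0.145% at 4 weeks (0.0794 to 0.244) and 1.05% in the control (0.838 to 1.31). The 2-week share was 0.211 times that of the control (0.125 to 0.341) and the 4-week share 0.138 times (0.0721 to 0.245). Between the WIF1 libraries the ratio of 4 weeks to 2 weeks was 0.654 (0.309 to 1.34), so counting error alone could not separate them. The comparisons with control use the same control library. As shares of nuclei, they cannot tell fewer GABAergic cells from more of the others or from unequal recovery.

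Depth moved with this share and its part was not tested in full. A Gad UMI is easier to see in a deep nucleus, and the WIF1 libraries were shallower. Counted over nuclei with at least 1000 UMIs, the members stayed at 22, 14 and 81, and were 0.530%, 0.211% and 1.27% of those nuclei; the 2-week ratio was then 0.418 (0.248 to 0.676). With every nucleus of at least 2000 UMIs thinned to 2000, 12, 8 and 42 nuclei met the rule. As shares of all kept nuclei, their ratios to control were 0.222 (0.106 to 0.429) and 0.152 (0.0616 to 0.327). Nuclei under 2000 UMIs could not be members there but still counted as kept, so these ratios do not remove the difference in depth. Thinned to 500 UMIs, 1, 0 and 7 nuclei were left. Rods, taken as nuclei with at least 3% rod RNA outside both amacrine classes, should lack GABA synthesis and had a Gad UMI in 0.229%, 0.142% and 0.390% of nuclei at median depths of 723, 1063 and 1246.5 UMIs. Leaving members out of the rods lowers these shares. Under that rod limit lay 22, 12 and 73 of the members, or 0.756%, 0.460% and 2.90% of nuclei under it.

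Glycinergic nuclei were also a smaller share in the WIF1 libraries, by less. They made up 1.67% at 2 weeks, 0.986% at 4 weeks and 3.27% in the control, ratios of 0.510 (0.416 to 0.623) and 0.302 (0.236 to 0.384). There were 0.133 GABAergic nuclei per glycinergic nucleus at 2 weeks (0.0813 to 0.209), 0.147 at 4 weeks (0.0776 to 0.260) and 0.323 in the control (0.248 to 0.416). The 2-week value was 0.413 times that of the control (0.236 to 0.701) and the 4-week value 0.457 times (0.228 to 0.861). Glycinergic nuclei had median depths of 2746, 3961 and 5177 UMIs, below those of members in each library.

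**Figure D1:**
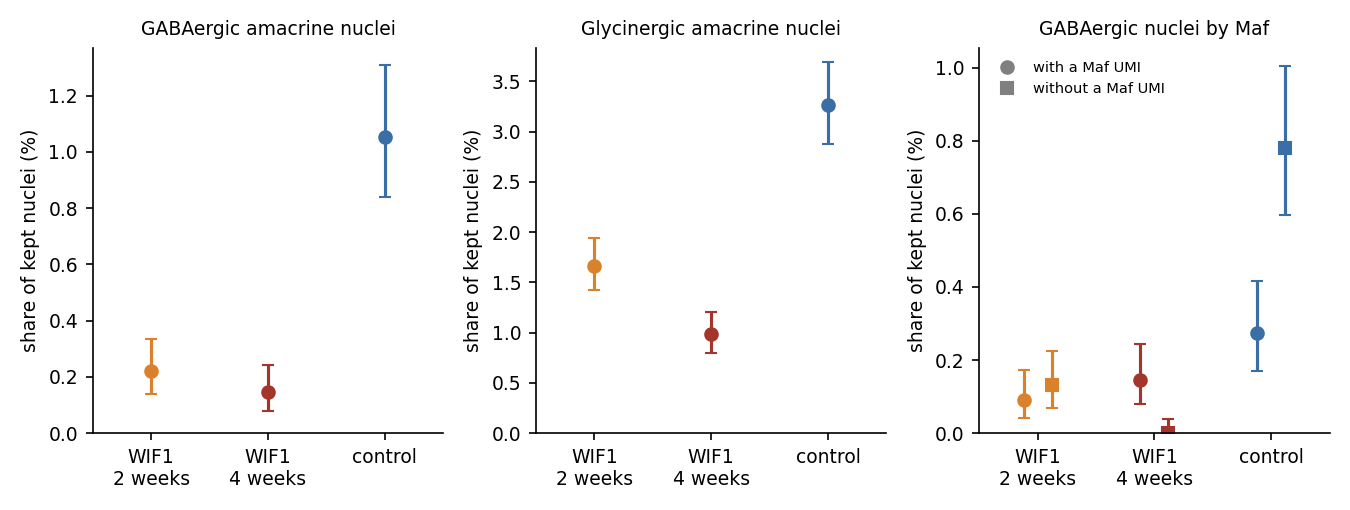
GABAergic and glycinergic amacrine nuclei as a percent of kept nuclei, in the libraries at 2 weeks, at 4 weeks and in the control; a further panel splits GABAergic nuclei into those with and without a Maf UMI, points are 1 library each and bars exact 95% intervals for counting error. The GABAergic share is 0.222%, 0.145% and 1.05%, the glycinergic share 1.67%, 0.986% and 3.27%, and nuclei without Maf number 0 at 4 weeks.

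Members divided by Maf, a basic leucine zipper transcription factor that the rule did not use. This division was chosen after its values were seen. Maf had a UMI in 9 of 22 members at 2 weeks (40.9%, 20.7 to 63.6), 14 of 14 at 4 weeks (100%, 76.8 to 100) and 21 of 81 in the control (25.9%, 16.8 to 36.9). Every GABAergic nucleus at 4 weeks thus held Maf RNA, while most control nuclei did not. Few glycinergic nuclei had a Maf UMI: 2 of 165, 3 of 95 and 3 of 251.

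Tfap2b, the AP-2 factor, was found in the other nuclei. It had a UMI in 9 of 22 members at 2 weeks, 0 of 14 at 4 weeks (a count of 0 allows up to 21.4%) and 42 of 81 in the control (51.9%, 40.5 to 63.1). Of the 117 members, 1 control nucleus held both genes. At 2 weeks 9 members had Maf alone, 9 Tfap2b alone and 4 neither; at 4 weeks all 14 had Maf alone. In the control 20 had Maf alone, 41 Tfap2b alone and 19 neither. Tfap2b is one of several genes that can admit a nucleus to the class, and Maf-positive members other than that one entered through the others.

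Outside the members, Tfap2b was not missing at 4 weeks. Glycinergic nuclei had a Tfap2b UMI in 47.3% at 2 weeks, 50.5% at 4 weeks and 54.2% in the control. Maf UMIs per Maf-positive member ranged from 1 to 13 with a median of 2 at 2 weeks, 3 to 14 with a median of 9 at 4 weeks, and 1 to 15 with a median of 7 in the control. With each member thinned to 1000 UMIs, Maf was seen in 18.2%, 64.3% and 21.0%, and Tfap2b in 31.8%, 0% and 30.9%.

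**Figure D2:**
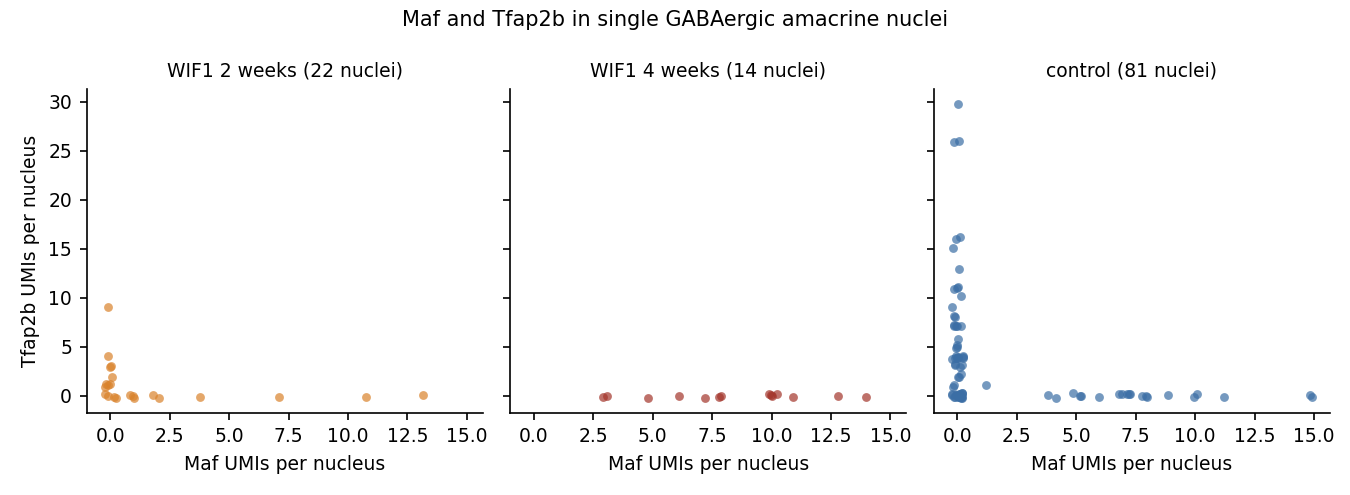
Maf and Tfap2b in each GABAergic amacrine nucleus of the libraries at 2 weeks, at 4 weeks and in the control; each point is 1 nucleus, placed by its UMIs of Maf and Tfap2b with a small random shift so that points do not hide each other. All 14 nuclei at 4 weeks have Maf and no Tfap2b, and 1 control nucleus has both.

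Counted apart, Maf-positive members were 0.0909% of kept nuclei at 2 weeks (0.0416 to 0.172), 0.145% at 4 weeks (0.0794 to 0.244) and 0.273% in the control (0.169 to 0.418). Ratios to control were 0.332 (0.134 to 0.757) at 2 weeks and 0.531 (0.25 to 1.10) at 4 weeks; the 4-week interval includes 1. Members without Maf were 13 nuclei at 2 weeks (0.131%), 0 at 4 weeks, with an exact upper limit of 0.0383%, and 60 in the control (0.781%). Their share was 0.168 times that of the control at 2 weeks (0.0846 to 0.310) and at least 25.1-fold lower at 4 weeks, against a floor of 3 nuclei; the exact upper limit of that ratio was 0.0506, a looser bound. The Maf-negative nuclei thus made up most of the difference from the control at 4 weeks. Control members with Maf were deeper than those without, at medians of 6230 and 5333.5 UMIs, and at 2 weeks the medians were 3822 and 3743.

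Many genes went with Maf inside the libraries that held both kinds. Of 1817 genes measured, 80 (4.4%) were at least 2-fold higher in Maf-positive than in Maf-negative members both at 2 weeks and in the control, and 99 (5.45%) were at least 2-fold lower. Nuclei were sorted by one of their own genes here, so these counts are descriptive. The genes named next were picked after their values were seen.

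Among the higher ones, Ptn, which encodes the secreted growth factor pleiotrophin, was 10.2-fold higher with Maf at 2 weeks and 11.0-fold higher in the control (7.68 to 16.2). It had 74 UMIs in 13 of the 14 nuclei at 4 weeks. Cdh10, a type II cadherin, had 25 UMIs with Maf and 3 without at 2 weeks, and 41 with Maf and 7 without in the control. Adarb2, an RNA-editing family member, was 5.95-fold and 10.0-fold higher. The protocadherin Pcdh7 was 2.57-fold and 9.64-fold higher, and Cplx2, which encodes the release protein complexin 2, 2.65-fold and 6.29-fold. All of these were present in most nuclei at 4 weeks, where every nucleus had Maf.

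Among the lower ones, Cartpt had 0 UMIs with Maf and 164 without at 2 weeks, and 3 with Maf and 1232 without in the control. At 2 weeks 155 of the 164 came from 1 nucleus. Erbb4, a neuregulin receptor, had 0 with Maf and 12 without at 2 weeks, and 0 with Maf and 92 without in the control. The potassium channel gene Kcnd2 had 0 and 26 at 2 weeks, and 0 and 219 in the control. None of these genes had a UMI at 4 weeks.

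Chromatin gave a count that took no part in choosing the nuclei. Promoter counts over the genes higher with Maf were 1.32 times as high in Maf-positive as in Maf-negative members at 2 weeks (1.15 to 1.51) and 1.19 times in the control (1.10 to 1.30). Over the genes lower with Maf the ratios were 0.727 (0.650 to 0.813) and 0.878 (0.813 to 0.947). Over these gene sets RNA and chromatin of the same nuclei thus went the same way in both libraries, with smaller ratios in chromatin. At the Maf promoter itself they did not: in the control all 8 counts came from nuclei without a Maf UMI, while at 2 weeks 10 of 12 came from nuclei with one. Nor did they at the Cartpt promoter at 2 weeks, where all 4 counts came from nuclei with Maf.

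Several marker genes of amacrine types were unseen at 4 weeks, and others were seen. Cartpt had a UMI in 5 of 22 members at 2 weeks, 0 of 14 at 4 weeks and 21 of 81 in the control. In glycinergic nuclei it was present in every library, in 65 of 165, 33 of 95 and 81 of 251. Tac1, the precursor of substance P, was in 3, 0 and 10 members, and Vip, a peptide gene, in 0, 0 and 5. The receptor gene Kit was in 1, 0 and 9 members and the nuclear receptor Nr4a2 in 4, 0 and 11. Nr4a2 had 0 UMIs with Maf and 11 without at 2 weeks, and 0 with Maf and 40 without in the control. These peptide and type markers were thus unseen in the 14 nuclei at 4 weeks, where the floor of 3 nuclei for a count of 0 is 21.4% of nuclei. Prkca, a protein kinase C gene, was in 8, 5 and 47 members, the helix-loop-helix factor Neurod1 in 1, 4 and 22, the homeobox factor Barhl2 in 2, 2 and 13 and the LIM homeobox factor Lhx9 in 0, 1 and 14. Other genes were broadly held there: Cdh10 in 12, 14 and 19 members, Slit2, an axon guidance ligand, in 19, 14 and 62, and Meis1 in 12, 13 and 71.

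At 4 weeks the summed profile of members differed from that of the control at many genes. Requiring 396 CPM and 30 UMIs in the higher library, 56 of 431 genes (13%) were at least 2-fold higher and 46 (10.7%) at least 2-fold lower. With the minimum set as 30 UMIs in the higher library, 56 of 2420 (2.31%) were higher and 516 (21.3%) lower. The second count is lopsided by construction, since control members held 487090 UMIs against 75836 at 4 weeks and 30 UMIs is a lower level there. Rod genes summed to 0.395 times the control level in members at 2 weeks (0.350 to 0.445) and 1.20 times at 4 weeks (1.11 to 1.29), and their part in the gene ratios was not tested.

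The largest ratio at 4 weeks was that of Cdh10, with 46 UMIs at 4 weeks and 48 in the control, a ratio of CPM of 6.16 (4.02 to 9.42). Maf had 118 and 159 UMIs, a ratio of 4.77 (3.72 to 6.09). Both also had UMIs in control members with Maf. The glutamate receptor gene Grm3 followed at 4.59 (2.89 to 7.23), the guanine nucleotide exchange factor gene Fgd6 at 4.15 (2.75 to 6.21) and Pcdh7 at 3.90 (3.43 to 4.44). The ephrin ligand gene Efna5 had a ratio of 3.73, Adarb2 of 3.72, the homeobox gene Pbx3 of 3.65 and Elmo1, a Rac activator subunit, of 3.37.

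At the low end, Cartpt had 0 UMIs at 4 weeks and 1235 in the control, 64.1-fold lower with the 0 set to the floor of 3 UMIs. Such folds are not exact bounds. Lrrc4c, which encodes a netrin-G ligand at synapses, had 0 and 937, 48.6-fold lower at that floor. Nrg1, the growth factor neuregulin 1, had 3 and 846, 43.9-fold lower (15.0 to 213). These were the deepest deficits, and in the control most of their UMIs lay in nuclei without Maf: Maf-positive control members held 3 of Cartpt, 14 of Lrrc4c and 57 of Nrg1. Galntl6, the adhesion gene Kirrel3 and Tfap2b had 0 UMIs at 4 weeks and 452, 329 and 323 in the control. Csmd1, the teneurin gene Tenm1 and Ryr2, a calcium release channel, had 1 UMI each against 367, 345 and 310.

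Glycinergic nuclei did not share these deficits. Their ratio of 4 weeks to control was 1.0 for Cartpt, 0.830 for Lrrc4c, 1.09 for Nrg1, 1.20 for Galntl6, 1.03 for Kirrel3 and 1.0 for Tfap2b. The difference between the classes was not tested.

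Set against control members with Maf, the 4-week ratios were closer to 1. That of Cdh10 was 2.02, of Maf 1.34, of Grm3 2.86, of Pcdh7 1.38 and of Adarb2 1.31. For Maf the fall was fixed in advance, since these control nuclei were chosen by a Maf UMI. Of the 56 higher genes, all 56 were measured in that comparison and 5 were still at least 2-fold higher; their median log2 ratio was 0.49, against 1.35 over all members. Of the 46 lower genes, 24 were measured and 13 were still at least 2-fold lower, with a median log2 ratio of −1.10 against −1.39 before. Within Maf-positive nuclei Nrg1 stood at 0.0947 times the control level, from 3 UMIs at 4 weeks and 57 in the control. Of those 57, 36 came from 1 control nucleus, the one that also held Tfap2b, so this ratio rests largely on that nucleus. Over all genes of these nuclei, 11 of 699 (1.57%) were at least 2-fold higher and 84 (12%) lower at 30 UMIs. This count is lopsided too, since these nuclei held 75836 UMIs at 4 weeks and 136486 in the control. The comparison rests on 14 nuclei at 4 weeks and 21 in the control.

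**Figure D3:**
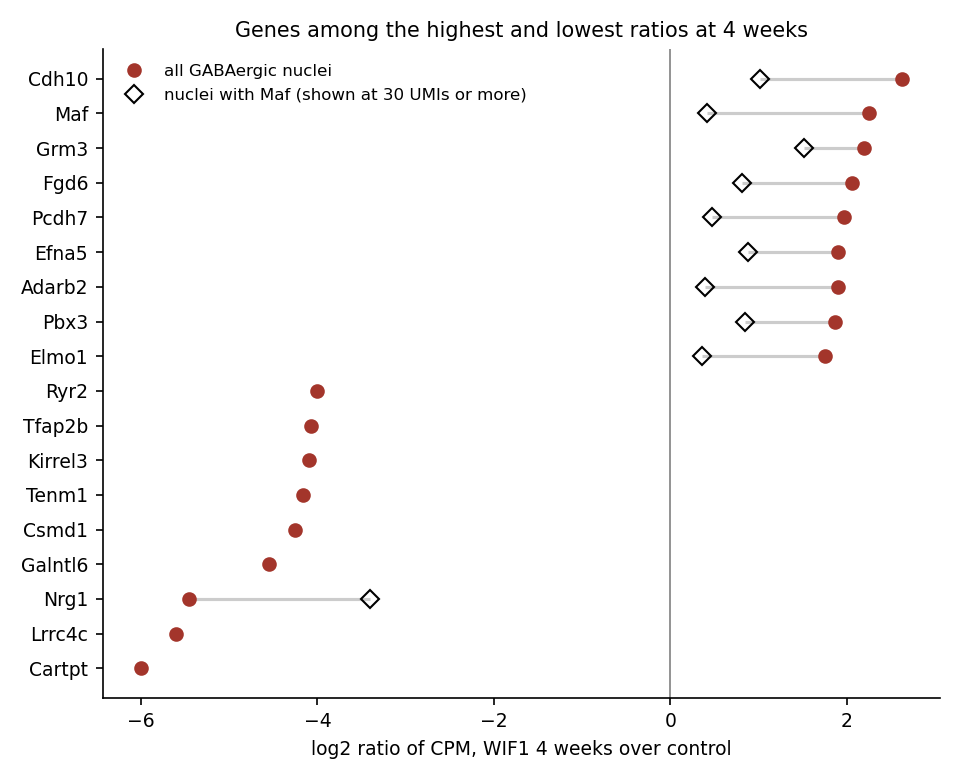
Log2 ratio of CPM at 4 weeks to control for genes among the 10 highest and 10 lowest by the naming rule; filled points are all GABAergic nuclei, open points those with Maf where the higher library had 30 UMIs, and a library under 3 UMIs is set to the floor of 3. Every higher gene shown lies closer to 0 in Maf-positive nuclei, as does Nrg1, and Cdh10 has a ratio of 6.16 over all members and 2.02 with Maf. For Maf itself the shift follows from choosing control nuclei by a Maf UMI. For Nrg1 with Maf, 36 of the 57 control UMIs come from 1 nucleus.

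At 2 weeks fewer genes than at 4 weeks passed the 2-fold mark over all members. Requiring 396 CPM in the higher library, 18 of 395 genes (4.56%) were at least 2-fold higher and 23 (5.82%) lower; at 30 UMIs the counts were 21 of 2469 (0.851%) and 454 (18.4%). Within Maf-positive nuclei 1 of 598 genes (0.167%) was at least 2-fold higher at 2 weeks and 112 (18.7%) lower, at 30 UMIs. Those nuclei held 37797 UMIs at 2 weeks, 75836 at 4 weeks and 136486 in the control, so 30 UMIs is the highest level at 2 weeks. These counts are thus lopsided by construction and do not rank 2 weeks against 4 weeks. Rgs6, a regulator of G protein signalling, had 52 UMIs in 8 nuclei at 2 weeks and 33 in the control, a ratio of 9.41 (5.97 to 15.0). Its ratio in glycinergic nuclei was 1.95. Rnf220, a ubiquitin ligase, had 83 and 110 UMIs, a ratio of 4.51 (3.35 to 6.05), with 0.558 in glycinergic nuclei. Gria2, an AMPA receptor subunit, had 251 and 630 UMIs, a ratio of 2.38 (2.05 to 2.76), with 2.00 in glycinergic nuclei. The adhesion gene Cntn5 had 133 and 330 UMIs, a ratio of 2.41 (1.95 to 2.95), with 0.486 in glycinergic nuclei. Some high genes were thus high in both amacrine classes and others in members alone; no difference between classes was tested. Tnc, Sez6l, Actb and Srsf2 had ratios of 2.79, 2.75, 2.48 and 2.30, and the unnamed loci Gm47283 and AC149090.1 had 3.89 and 2.78.

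The lowest ratios at 2 weeks belonged to AY036118 and Gm42418, annotated loci that overlap ribosomal RNA sequence. AY036118 had 3 UMIs at 2 weeks and 423 in the control, 23.6-fold lower (8.02 to 115), and Gm42418 had 21 and 1499, lower by a factor of 7.79 to 19.4. In glycinergic nuclei they were at 0.134 and 0.083 times the control level, so these loci were low in both classes. Olfm3, a secreted olfactomedin, had 0 and 115 UMIs, 6.42-fold lower with the 0 set to the floor of 3 UMIs. Tafa2 had 5 and 184 UMIs and Pcp4, a calmodulin regulator, 5 and 150, with glycinergic ratios of 0.109 and 0.273. March1, Schip1, Camk1d, Lrrn3 and Dtna completed the 10 lowest, with 3 to 12 UMIs at 2 weeks.

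Set against each other, the WIF1 libraries differed in members at 55 of 433 genes (12.7%) at least 2-fold higher at 4 weeks and 33 (7.62%) at least 2-fold lower, at 396 CPM in the higher library. Within Maf-positive nuclei the counts at 30 UMIs were 43 of 308 (14%) and 9 (2.92%), against 55 of 466 (11.8%) and 40 (8.58%) over all members. Maf-positive nuclei held 75836 UMIs at 4 weeks and 37797 at 2 weeks, so their counts are lopsided by construction. The ribosomal RNA loci AY036118 and Gm42418 had the highest ratios, with 85 and 134 UMIs at 4 weeks against 3 and 21 at 2 weeks. The kinase gene Camk1d had 62 UMIs at 4 weeks and 12 at 2 weeks, Efna5 had 47 and 14, Slit2 had 183 and 63 and Maf had 118 and 42. At the low end Nrg1 had 3 and 116, Kirrel3 had 0 and 42 and Gabra2 had 7 and 78.

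Genes that handle GABA had no common direction. Over 11 such genes the median log2 ratio was 0.12 at 2 weeks, with 6 of 11 above the control, and −0.40 at 4 weeks, with 4 of 11. Over all genes the medians were −0.08 (3866 of 8587 genes above the control) and −0.17 (3672 of 8461). The GABA transporter gene Slc6a11 had 33, 8 and 92 UMIs, a ratio of 2.14 (1.39 to 3.22) at 2 weeks and 0.559 at 4 weeks. Genes of vesicle release had medians of −0.14 (9 of 24 above) and −0.05 (11 of 24).

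Receptors for GABA and glycine split by subunit. Their median log2 ratios were −0.01 at 2 weeks (9 of 20 above) and −0.20 at 4 weeks (6 of 20). Gabra2 had 78, 7 and 228 UMIs, a ratio of 2.04 (1.56 to 2.65) at 2 weeks and 0.197 (0.0784 to 0.413) at 4 weeks. Gabrb1 had 27, 0 and 153 and Glra1, a glycine receptor subunit, 18, 0 and 48. These 3 genes lay mainly in nuclei without Maf: in the control Maf-positive members held 7 UMIs of Gabra2, 1 of Gabrb1 and 1 of Glra1. Within Maf-positive nuclei Gabra2 stood at 92.3 CPM at 4 weeks and 51.3 CPM in the control, 7 UMIs each, so its 4-week direction turned. The median of the list there was 0.17 (8 of 14 above). Gabrd, whose subunit sits in extrasynaptic receptors, went the other way at 4 weeks, with 5, 20 and 35 UMIs and a 4-week ratio of 3.67 (2.01 to 6.54). Gabbr2, a GABA-B receptor subunit, had 43, 49 and 132 UMIs, ratios of 1.95 and 2.38 (1.68 to 3.33 at 4 weeks).

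Glutamate receptors, through which bipolar cells drive amacrine cells, were spread more widely. Of 20 genes, 6 were above the control at 2 weeks (median log2 ratio −0.49) and 8 at 4 weeks (median −1.32). With genes at 0 set to the floor of 3 UMIs the medians were −0.23 and 0.02. The summed level was 1.1 times that of the control at 2 weeks (1.04 to 1.20) and 1.14 times at 4 weeks (1.06 to 1.23), opposite in sign to the medians taken without the floor. Within Maf-positive nuclei the medians were 0.25 (8 of 12 above) and 0.20 (9 of 11). Gria2 had 251, 205 and 630 UMIs, ratios of 2.38 and 2.09 (1.78 to 2.45 at 4 weeks). Grm7, a group III metabotropic receptor, had 210, 275 and 849, ratios of 1.48 and 2.08 (1.81 to 2.39 at 4 weeks). Grm5 had 16, 0 and 126 UMIs, Grin2b 2, 0 and 86, and Grik2 41, 11 and 366. Gria2 and Grm7 thus stood above the control in both WIF1 libraries, while the other subunits named here were low or unseen at 4 weeks.

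Other lists lay on both sides of the median of all genes. Amacrine transcription factors had medians of −0.33 (10 of 23 above) at 2 weeks and 0.35 (11 of 21) at 4 weeks; with genes at 0 set to the floor they were −0.01 and 0.52. Ion channels had 0.17 (19 of 34) and 0.18 (20 of 33), and adhesion genes 0.10 (38 of 60) and 0.05 (30 of 59). Wnt pathway genes, which WIF1 acts on from outside the cell, had −0.03 (7 of 14) and −0.11 (7 of 15). Tcf4, a basic helix-loop-helix factor that the design text links to Wnt signalling, had 24, 27 and 95 UMIs. Wif1 itself had 0 UMIs in members of every library. Nuclear genes of oxidative phosphorylation had a median of −0.93 at 4 weeks (6 of 26 above), and in glycinergic nuclei −0.58 (3 of 26). Ribosomal protein genes had medians of −0.48 and −0.65. Genes of neuronal stress and cell death had −0.33 (3 of 9) and −0.32 (2 of 9), and immediate early genes −0.42 (3 of 7) and −1.53 (1 of 5), the last becoming −0.32 with genes at 0 set to the floor.

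Immune genes stood near or below the control in members at 2 weeks and above it in glycinergic nuclei, a difference that was not tested. Antigen presentation genes summed to 650 CPM in members at 2 weeks (487 to 850), 686 at 4 weeks (512 to 899) and 801 in the control (723 to 884), ratios of 0.812 (0.597 to 1.08) and 0.856 (0.628 to 1.15). In glycinergic nuclei they summed to 1535, 930 and 752 CPM, ratios of 2.04 (1.86 to 2.24) and 1.24 (1.10 to 1.39). The member list was led in part by Calr, which encodes the chaperone calreticulin, with 16, 27 and 186 UMIs. B2m, the light chain of class I molecules, had 7, 0 and 22 UMIs and the class I gene H2-D1 had 10, 3 and 21, a 2-week ratio of 2.84 (1.20 to 6.31). Class I genes and Calr thus lay on opposite sides of the control at 2 weeks. Interferon-induced genes summed to 159, 65.9 and 144 CPM in members, from 13, 5 and 70 UMIs, with a 2-week ratio of 1.11 (0.563 to 2.02). In glycinergic nuclei they summed to 434, 204 and 160 CPM, a 2-week ratio of 2.71 (2.24 to 3.29). Gene by gene, 3 of 7 antigen presentation genes and 1 of 3 interferon-induced genes were above the control in members at 2 weeks (median log2 ratios −0.69 and −0.59, the second opposite in sign to its sum), against 10 of 14 and 9 of 9 in glycinergic nuclei.

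Markers of immune cells and glia were present beside these values, and their part was not tested. Of the 6 lymphocyte markers, 3, 0 and 0 had UMIs in members, summing to 98.1, 0 and 0 CPM, against 130, 9.08 and 11.5 CPM in glycinergic nuclei. Of the 7 microglial markers, 3, 2 and 2 had UMIs, summing to 98.1, 65.9 and 49.3 CPM, against 83.9, 47.6 and 42.3 CPM. Müller glia markers summed to 331, 277 and 331 CPM in members and 1779, 1445 and 318 CPM in glycinergic nuclei, and so were higher in the WIF1 libraries in the glycinergic class.

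**Figure D4:**
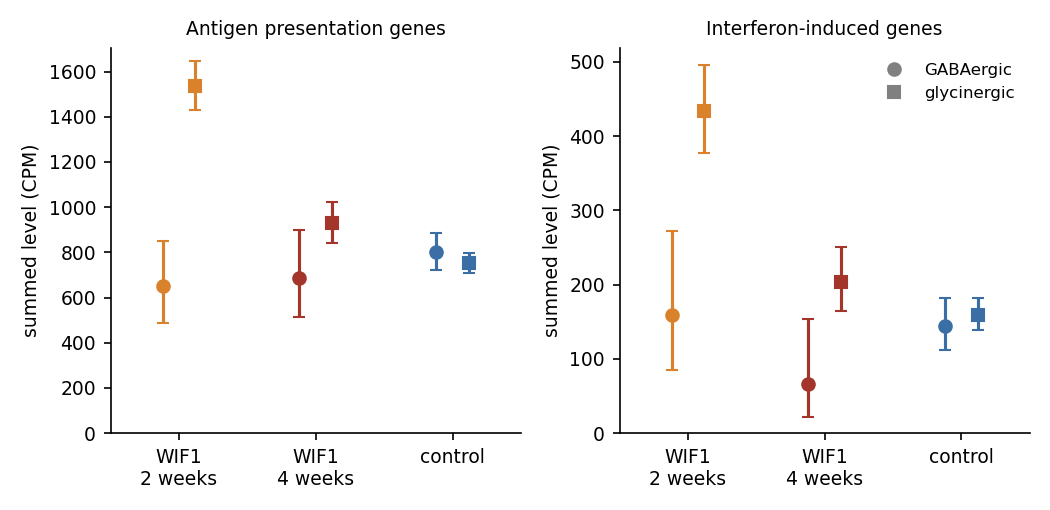
Summed level of antigen presentation and interferon-induced genes, in CPM, in GABAergic and in glycinergic amacrine nuclei of the libraries at 2 weeks, at 4 weeks and in the control; each point is 1 class of 1 library and bars are exact 95% intervals for counting error. At 2 weeks antigen presentation genes stand at 650 CPM in GABAergic and 1535 CPM in glycinergic nuclei.

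Against glycinergic nuclei of the same library, 100 of 1755 genes (5.7%) were at least 4-fold higher in members in all 3 libraries and 45 (2.56%) at least 4-fold lower. Both classes were cut by their own transcripts, so this is a description. The higher genes included the chemokine gene Cxcl14, with 57, 105 and 265 UMIs in members against 3, 0 and 8 in glycinergic nuclei, and Maf, Tnc and Meis2. The lower genes included Lamp5, Dab1, Lgr5, Prox1 and Ebf1.

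Chromatin counts, which the rule did not use, were compared between the classes. They are given per 1e+06 counts in promoter peaks, those within 1000 bp of a gene's annotated starts, and the peaks were called separately for each library. At Slc6a9 members stood at 80.3 at 2 weeks, 134 at 4 weeks and 143 in the control, against 506, 277 and 259 in glycinergic nuclei, ratios of 0.158 (0.0814 to 0.279), 0.484 (0.253 to 0.852) and 0.552 (0.409 to 0.733). The glycine transporter promoter thus had fewer counts in members in every library. At Meis2 the classes did not keep one order: members stood at 20.1, 258 and 126, against 44.0, 113 and 50.5 in glycinergic nuclei, the 2-week value resting on 3 counts.

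Over the 100 genes higher in members, promoter counts were 1.95 times those in glycinergic nuclei at 2 weeks (1.83 to 2.08), 2.14 times at 4 weeks (1.96 to 2.34) and 1.63 times in the control (1.55 to 1.72). Over the 45 lower genes they were 0.566, 0.545 and 0.631 times. At the Gad2 promoter printed above, a peak was called at 2 weeks, at chr2:22621845-22622834, with 12 counts in members, or 80.3 on that scale, against 11.2 in glycinergic and 1.80 in other nuclei. The Cartpt promoter had 4, 0 and 16 counts in members and 46, 8 and 43 in glycinergic nuclei. All 4 member counts at 2 weeks came from nuclei with Maf, the reverse of its RNA. In the control 2 came from nuclei with Maf and 14 from those without. Its peak in the control lay at chr13:99900319-99901197 and covers the printed window.

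**Figure D5:**
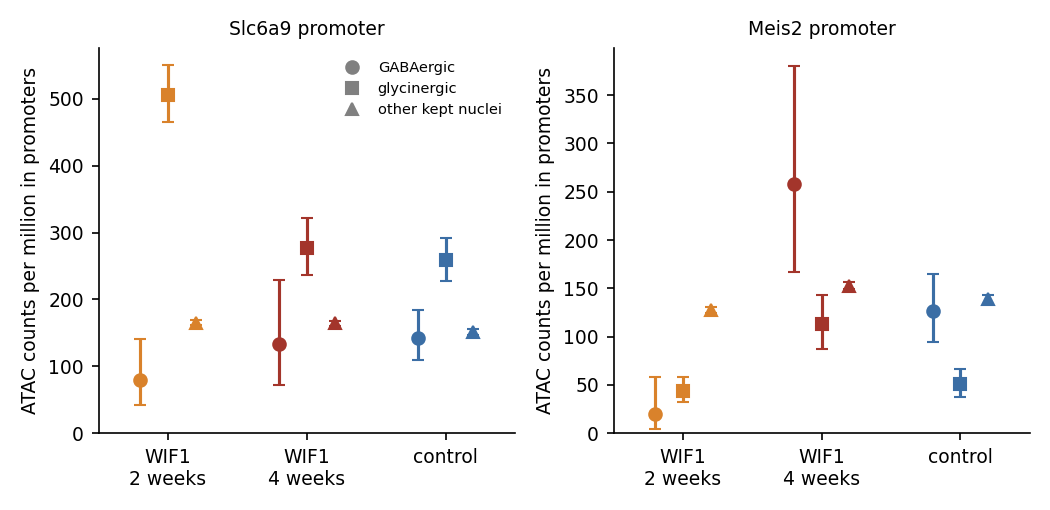
ATAC counts per 1e+06 counts in promoter peaks at Slc6a9 and Meis2 in GABAergic, glycinergic and other kept nuclei, for the libraries at 2 weeks, at 4 weeks and the control; points are 1 class of 1 library and bars exact 95% intervals for counting error. Slc6a9 stands at 80.3, 134 and 143 in GABAergic nuclei and at 506, 277 and 259 in glycinergic nuclei.

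In the promoters of genes that went with Maf, motif content lay near that of all promoters. Of the 80 genes higher with Maf, 59 had a RefSeq promoter entry, giving 83 promoters, of which 22.9% held the AP-2 motif and 24.1% the Maf half-site. Of the 99 lower genes, 78 had one, giving 118 promoters, of which 17.8% and 20.3% held them. Over all promoters the shares were 16.6% and 19.5%.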

How the data were processed

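Nuclei were profiled with the 10x multiome assay, which reads RNA and open chromatin from one nucleus. The deposited files hold raw counts of UMIs per gene and of ATAC counts per peak for each barcode; per the submitters' processing notes, Cell Ranger ARC 2.0.1, Seurat 5.0.1, Signac 1.12.0 and build mm10 were used. The gene rows number 32285.

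Members were found on the counts as deposited, and their UMIs were summed per library and scaled to CPM. Papain dissociation and nuclear lysis came first, per the labels' protocols. Ratios have exact conditional binomial intervals, shares Clopper-Pearson intervals and levels Poisson intervals, all 95%. A count of 0 is given a floor of 3 counts. Doublets were scored with Scrublet at a rate of 0.8% per 1000 barcodes and kept.

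Named genes were the 10 highest and 10 lowest ratios to control among genes with at least 30 UMIs in the higher library and at least 5 nuclei there, with no nucleus over 50% of them, leaving out mitochondrial, sex-linked and rod genes; list and rule genes could also be named. Some of these genes are not reported here. Lists counted genes with at least 10 UMIs. Members and lists were chosen with earlier results of these data known. Scripts were tested on simulated data. Software was Python 3.11.15, numpy 2.4.6, pandas 2.3.3, scipy 1.17.1, scanpy 1.11.5 and matplotlib 3.10.9.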

Additional observations from a re-analysis of the deposited data

Results flagged for a closer look

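In several gene lists the summed level lay above the control in one amacrine class and below it in the other class of the same library. None of these differences was tested, since each group had 1 library, and intervals cover counting error only. At 2 weeks, genes of GABA handling stood at 1.27 times the control in GABAergic nuclei (1.08 to 1.48) and 0.963 times in glycinergic nuclei (0.869 to 1.06), an interval that includes 1. Receptors for GABA and glycine stood at 1.2 times (1.08 to 1.33) and 0.895 times (0.849 to 0.944). Genes of oxidative phosphorylation stood at 1.17 times (1.05 to 1.31) and 0.753 times (0.719 to 0.789). Amacrine type markers stood at 0.824 times (0.733 to 0.923) in GABAergic and 1.07 times (1.0 to 1.15) in glycinergic nuclei. Antigen presentation genes stood at 0.812 times (0.597 to 1.08), an interval that includes 1, and 2.04 times (1.86 to 2.24). At 4 weeks, glutamate receptors stood at 1.14 times the control in GABAergic nuclei (1.06 to 1.23) and 0.976 times in glycinergic nuclei (0.937 to 1.02), which includes 1. Rod genes at 4 weeks stood at 1.2 times (1.11 to 1.29) and 0.951 times (0.919 to 0.983), so RNA of another cell type also moved with the class; its part in the other lists was not tested.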

How the results depend on the processing

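No paired analysis was possible because each group had 1 library, and no replicate could be left out. Of the alternatives to the main values, 103 kept them and 27 moved them. Some list medians differed in sign from those over all members taken without the floor. In Maf-positive nuclei that of glutamate receptors was 0.20 at 4 weeks (−1.32 over all members) and that of GABA handling 0.11 (−0.40). With genes at 0 set to the floor, the glutamate receptor median over all members was above 0 at 4 weeks, as given above, so its sign did not change. Taken so, all 22 list medians kept their values in Maf-positive nuclei. Thinned to 500 UMIs, the GABAergic share ratio was 0.111 at 2 weeks and 0 at 4 weeks, and the ratio per glycinergic nucleus 0.0918 and 0; at a minimum of 1000 UMIs the 2-week share ratio was 0.418. Thinned to 1000 UMIs, Maf was seen in 18.2% of members at 2 weeks and 64.3% at 4 weeks, and Tfap2b in 30.9% of control members. Gene counts moved most, and the number of genes tested changed with the setting. The cause of these moves was not tested. For genes 2-fold higher at 2 weeks (21 of 2469), the counts were 1 of 598 in Maf-positive nuclei and 89 of 2469 after dividing by the median. At 10 UMIs the count was 214 and at 1 UMI 7860. At 1 UMI, genes at or under the floor of 3 UMIs in both libraries are set to 3 in both. They then count as higher in the WIF1 library, which had fewer UMIs, so the 7860 holds genes of either direction. For genes lower at 2 weeks (454 of 2469, 18.4%), the counts were 112 of 598 with Maf (18.7%), 134 of 2469 by the median and 23 of 395 at 396 CPM (5.82%). At 4 weeks, higher genes (56 of 2420) numbered 11 of 699, 155 of 2420, 237 and 8080 under the first set of settings. The 8080, too, holds genes of either direction. Lower genes (516 of 2420, 21.3%) numbered 84 of 699 (12%), 150 of 2420 and 46 of 431 (10.7%) under the second. More genes were tested at 10 UMIs and at 1 UMI, so raw counts cannot be ranked across settings. Between 4 and 2 weeks, higher genes (55 of 466) numbered 323 at 10 UMIs and 630 at 1 UMI, and lower genes (40 of 466) 9 of 308 with Maf, 387 and 717. Of the 40 named genes, 17 moved when divided by the median, 17 moved and 6 kept their value in Maf-positive nuclei, where the others had too few UMIs, and 2 moved with at least 3 Gad UMIs. With at least 1 or 3 Gad UMIs, members numbered 36, 18 and 100 or 16, 13 and 65, and all but 2 or all of those at 4 weeks had Maf. Settings at 396 CPM, at 2000 UMIs and in Maf-positive nuclei were added after seeing the data. The 14 nuclei at 4 weeks limit every value there.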
